A study of Homo sapiens with 2 samples.

Results

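Nucleoporins are the proteins from which the nuclear pore is built, and importins and exportins are the receptors that carry cargo through it. Genes were taken as members when their symbol in the array annotation starts with NUP and a digit, with KPNA, KPNB or TNPO, or with IPO or XPO and a digit. This rule took 50 of 19775 genes, read by 141 of 41091 probe sets with 1 gene symbol, and used no measured value. Of the 50 genes, 23 code for nucleoporins, 17 for importins and 5 for exportins, and the other 5 symbols belong to pseudogenes and non-coding transcripts, which are set apart here. PC-3 is an androgen-independent human prostate cancer cell line, and RD (riccardin D) is a liverwort compound of the macrocyclic bisbibenzyl class. RNA was taken from RD-treated PC-3 cultures after 24 h (the dose, 10 µmol/L, is that of the study's gene list, since the sample labels give none) and from control PC-3 cells. The control is described as untreated in its source name and as given the DMSO vehicle in the treatment protocol. A single Affymetrix HG-U133 Plus 2.0 array was run for each, on which groups of short oligonucleotides, called probe sets, read each transcript.

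The nuclear pore is a ring of repeated subcomplexes that spans the nuclear envelope. The Y complex forms its outer rings and also sits at kinetochores in mitosis, the inner ring lines the membrane, proteins of the central channel form a permeable mesh, and filaments and a basket extend to the cytoplasm and to the nucleoplasm. Importins bind a nuclear localisation signal in the cytoplasm, either directly or through an importin alpha adaptor, and release the cargo in the nucleus when they meet the GTP form of Ran, while exportins bind cargo together with that form and release it in the cytoplasm.

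The values are MAS5 signals on a linear intensity scale. A gene was represented by its brightest probe set, and the difference is that of log2 signals, RD minus control. The floor, 66.9, is the median of all signals of both arrays, and a probe set with a signal of at least 377.4, the 75th percentile, on either array is called bright. With 1 array per condition no test was possible and no p-value is given. Any difference between the cultures runs with the treatment, and fewer cells of a kind cannot be told apart from less RNA per cell. The only error that can be given is the scatter between probe sets of a gene, whose SD on the log2 scale was 0.34 over bright probe sets of all genes (0.76 at the floor) and 0.28 over the 69 bright probe sets of 22 member genes. KRT18, a keratin of simple epithelium, had a signal of 15416.6 in RD-treated cells and 10224.2 in control cells, and the leukocyte markers PTPRC and CD3E were under the floor on both arrays. The epithelial genes EPCAM and CDH1 and the androgen-responsive genes KLK2 and TMPRSS2 were under the floor as well, as were COL1A2 of fibroblasts and VWF of endothelium. The epithelial gene KRT8 reached the floor, with 159.3 in RD-treated cells and 113.8 in control cells. The androgen-responsive gene KLK3 had 230.6 with RD and 131.4 in the control by 1 of its probe sets and was under the floor by the others. COL1A1 of fibroblasts had 325.8 with RD and 370.6 in the control by its brightest probe set, and no other passed 154.4. PECAM1 of endothelium had 72.7 with RD and 121.6 in the control by 1 of its probe sets and was under the floor by the others. Of 13 markers analysed, 5 thus reached the floor, and their part in the results was not tested.

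Nucleoporins leaned to lower signals in RD-treated cells, while importins were spread about 0 and exportins lay between them. Of the 21 nucleoporins that reached the floor, 15 had a lower signal with RD (17 after centring of both arrays on the median and 16 after quantile normalization), and their median difference was -0.49. For 16 importin genes the median was 0.06 and 6 were lower, and for 5 exportin genes it was -0.22 and 3 were lower. Over all 12818 genes at or above the floor the median was -0.0022 and 50.1% were lower. The differences were small. At 2-fold, NUP85 was the 1 nucleoporin counted as lower and NUP58 the 1 counted as higher, and no importin and no exportin was counted. The rule counted 13.3% of all genes as lower and 12.1% as higher. Most members are bright, and among the 8094 bright genes it counted 10.9% as lower and 9.91% as higher. Centring or quantile normalization put 3 nucleoporins past 2-fold lower and left 1 higher. Of all genes, 14.3% were then at least 2-fold lower after centring and 14.0% after quantile normalization. The shares at least 2-fold higher were 11.2% and 11.5%. At 1.5-fold, 8 of 21 nucleoporins (38.1%) were lower and 1 was higher, against 24.7% lower and 22.8% higher among all genes. Among bright genes the shares were 23% lower and 21.3% higher. The same limit counted 2 importins as lower and 3 as higher (18.8% of 16). The SD of differences was 0.61 over 20 bright nucleoporins and 0.48 over 16 bright importins, against 0.88 over 8094 bright genes of every kind.

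**Figure D1:**
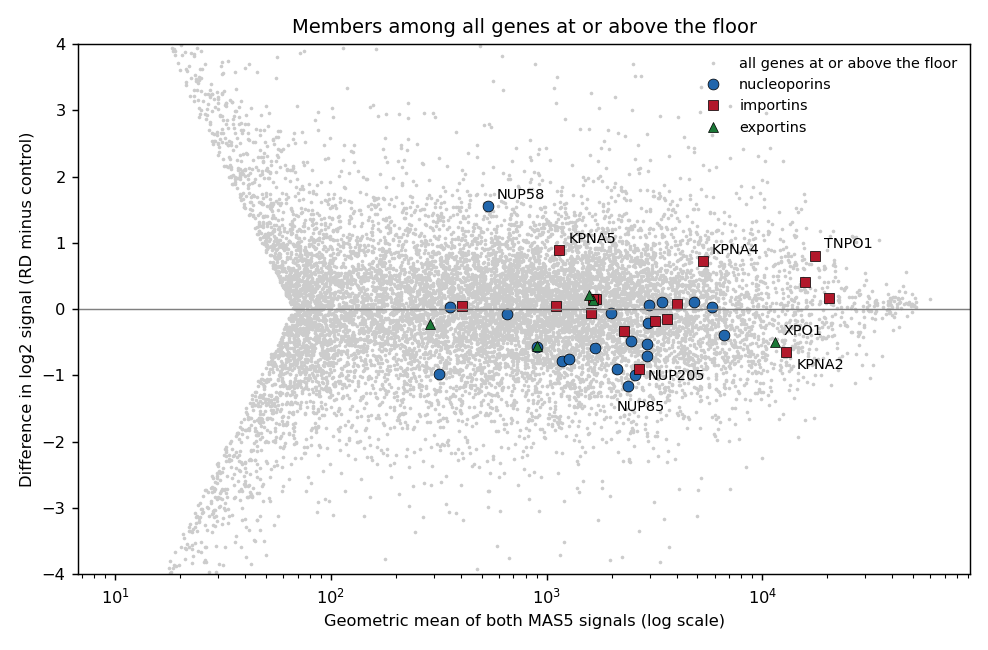
Difference in log2 signal (RD minus control, vertical) against the geometric mean of both MAS5 signals (horizontal, log scale) for nucleoporins (circles), importins (squares), exportins (triangles) and all genes at or above the floor (grey). The 81 genes beyond 4 on the vertical axis are not drawn. The members lie in the bright part of the cloud, with NUP58 at 1.56 and NUP85 at -1.16 at the ends.

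The stretches upstream of the start site are shown for the members at both ends of the order for which a promoter was given, because most members of the scaffold had lower signals together. They are NUP85 and NUP205 at the low end and NUP58 and TNPO1 at the high end. KPNA2 was added after its values were seen, since it holds 3 of the 4 motifs searched. Each runs 5′ to 3′ over the 250 bases before the first listed start, all on the plus strand, from RefSeq (GRCh38.p14). Capitals mark matches on either strand. The E2F word searched was TTTNNCG, in which each N stood for a strong (C or G) base. The words for the CHR element of cell cycle promoters were TTTGAA and its variant TTCGAA. The last motifs were the CCAAT box and the composite site of CHOP and ATF4, which was searched as TGATGNAA. None of the matches shown overlap.
NUP85, chr17:75205429-75205678: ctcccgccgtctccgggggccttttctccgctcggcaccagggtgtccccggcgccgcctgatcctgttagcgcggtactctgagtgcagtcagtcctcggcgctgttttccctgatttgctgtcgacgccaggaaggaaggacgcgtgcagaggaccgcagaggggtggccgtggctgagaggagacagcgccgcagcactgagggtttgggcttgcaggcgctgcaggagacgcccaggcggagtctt
NUP205, chr7:135557667-135557916: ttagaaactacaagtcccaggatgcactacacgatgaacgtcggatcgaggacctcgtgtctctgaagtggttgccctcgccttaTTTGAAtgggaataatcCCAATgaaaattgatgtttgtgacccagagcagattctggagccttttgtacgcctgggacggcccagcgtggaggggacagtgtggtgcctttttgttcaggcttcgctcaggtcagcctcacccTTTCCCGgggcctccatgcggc
NUP58, chr13:25301375-25301624: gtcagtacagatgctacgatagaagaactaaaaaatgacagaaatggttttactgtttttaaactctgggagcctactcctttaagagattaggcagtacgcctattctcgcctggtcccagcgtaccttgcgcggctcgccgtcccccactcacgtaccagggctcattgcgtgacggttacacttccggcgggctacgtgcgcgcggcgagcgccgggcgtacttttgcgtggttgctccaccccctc
TNPO1, chr5:72816411-72816660: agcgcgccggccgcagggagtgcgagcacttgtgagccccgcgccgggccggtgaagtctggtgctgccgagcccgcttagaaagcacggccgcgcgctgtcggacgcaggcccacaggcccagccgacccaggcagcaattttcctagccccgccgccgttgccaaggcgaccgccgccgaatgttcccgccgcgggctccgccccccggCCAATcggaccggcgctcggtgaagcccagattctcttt
KPNA2, chr17:68035485-68035734: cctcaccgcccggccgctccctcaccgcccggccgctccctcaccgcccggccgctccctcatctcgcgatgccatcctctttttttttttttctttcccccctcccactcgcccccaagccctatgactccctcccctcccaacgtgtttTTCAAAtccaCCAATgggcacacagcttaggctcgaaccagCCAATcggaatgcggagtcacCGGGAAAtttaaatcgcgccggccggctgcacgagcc
NUP85, the member with the lowest difference, held none of these words, nor did NUP58, while NUP205 held an E2F word, a CHR word and a CCAAT box. The promoter of KPNA2 held an E2F word, a CHR word and 2 CCAAT boxes. Of the 45 protein-coding members, 40 had a promoter in the table, and KPNA4, KPNA5, KPNB1, NUP43 and XPO7 did not. Of the 40, 37 belong to genes at or above the floor. An E2F word stood in 5 of these 37 (13.5%), against 11.0% of 10415 promoters of all genes at or above the floor. A CHR word stood in 7 (18.9%, against 10.3%), CCAAT in 18 (48.6%, against 35.3%) and the composite in 1 (2.70%, against 1.64%). Of the 10 members at least 1.5-fold lower, 3 held an E2F word, 3 a CHR word and 5 a CCAAT box. These matches describe letters in the window and are not binding sites.

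The Y complex, the outer scaffold, had 5 of 6 members with a lower signal in RD-treated cells and a median difference of -0.51. NUP85, which anchors one arm of the Y, had a signal of 1592.6 in RD-treated cells and 3556.5 in control cells by its only probe set. That is 2.23-fold lower, and 8.23% of the 8094 bright genes had a difference further down. NUP133, at the foot of the stem, had 1358 with RD and 2051.6 in the control (1.51-fold lower), and its dimmer probe set differed by -0.43. NUP107, which joins NUP133 to the rest of the Y, had 2424.1 with RD and 3500.5 in the control (1.44-fold lower). By their brightest probe sets, NUP133 and NUP107 were thus lower by similar factors, and NUP85 by a larger one. NUP85 and NUP107 have only 1 probe set each. A difference between 2 bright probe sets of any 1 gene had an SD of 0.48, so this order is not firm. NUP160, in the other arm, had 2088.3 with RD and 2928.6 in the control, and its 3 probe sets differed by -0.49, -0.76 and -0.80. NUP37, a small propeller protein that binds NUP160, had 5836.4 with RD and 7625.4 in the control (1.31-fold lower), with a dim probe set at -1.18. NUP43, which binds NUP85, was the exception. Its signal was 3552.7 with RD and 3299.2 in the control, and its dim probe set also lay slightly above 0, at 0.24. Y complex genes with other names were mixed. SEH1L, which pairs with NUP85, was 1.71-fold lower (3017.8 with RD and 5168.2 in the control), with 2 bright probe sets at -0.78 and -0.24. SEC13, which is also a subunit of the COPII coat of the secretory pathway, was 2.21-fold higher (8597.9 with RD and 3896.3 in the control). The bright probe sets of AHCTF1 (ELYS), which brings the complex to chromatin, lay on opposite sides, at 0.46 and -0.58.

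All 5 inner ring genes had lower signals in RD-treated cells, by 1.49-fold to 1.99-fold, with a median difference of -0.76. NUP205 had 1822.1 with RD and 3635 in the control (1.99-fold lower, just short of 2-fold), and its other probe set differed by -0.89. NUP188, its paralogue and the alternative partner of NUP93, had 743.1 with RD and 1105.8 in the control (1.49-fold lower), and a dim probe set stood at -0.91. NUP93, which links the ring to the channel proteins, had 1559.8 with RD and 2909.2 in the control (1.87-fold lower). These large scaffold proteins thus differed in the same direction. NUP155, which bridges to the outer rings, had 974.3 with RD and 1648.2 in the control (1.69-fold lower). NUP35, which bends and binds the membrane, had 2280.7 with RD and 3732 in the control (1.64-fold lower). Among the bright genes of the array, 11.0% lay below NUP205, 13.0% below NUP93 and 23.4% below NUP188, so each of these differences is one that many genes on these arrays reached. Taking the members of the Y complex and the inner ring as the scaffold, 10 of 11 genes were lower, 6 of them (54.5%) at least 1.5-fold. Of all genes, 50.1% were lower and 24.7% at least 1.5-fold lower. The median of these 11 genes was -0.60. SEH1L, SEC13 and AHCTF1 lie outside the naming rule and are not in these counts. NUP98, whose transcript also encodes the Y complex protein NUP96, is counted with the cytoplasmic side and not here.

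NUP210, the transmembrane nucleoporin of the luminal ring, had 226.2 in RD-treated cells and 448.2 in control cells by its brightest probe set (1.98-fold lower). Its other bright probe set stood at 189.3 with RD and 486.2 in the control, a difference of -1.36. Both were bright through the control signal alone. Of its 3 dimmer probe sets, 2 were slightly higher (0.23 and 0.29), and the third had 154.1 in the control and an RD signal of 61.4 under the floor, a bound of at least 2.30-fold lower, so the direction of NUP210 depends on which probe sets are read. The other membrane anchors moved apart. NDC1 was 2.93-fold lower, with 1966.3 in RD-treated cells and 5755.8 in control cells, although its second bright probe set differed by only -0.74. TMEM33 was 1.57-fold higher (2053.7 with RD and 1307.9 in the control), POM121C had 439.4 with RD and 408.1 in the control, and POM121 was at least 1.73-fold higher, since its control signal of 60.6 lay under the floor.

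**Figure D2:**
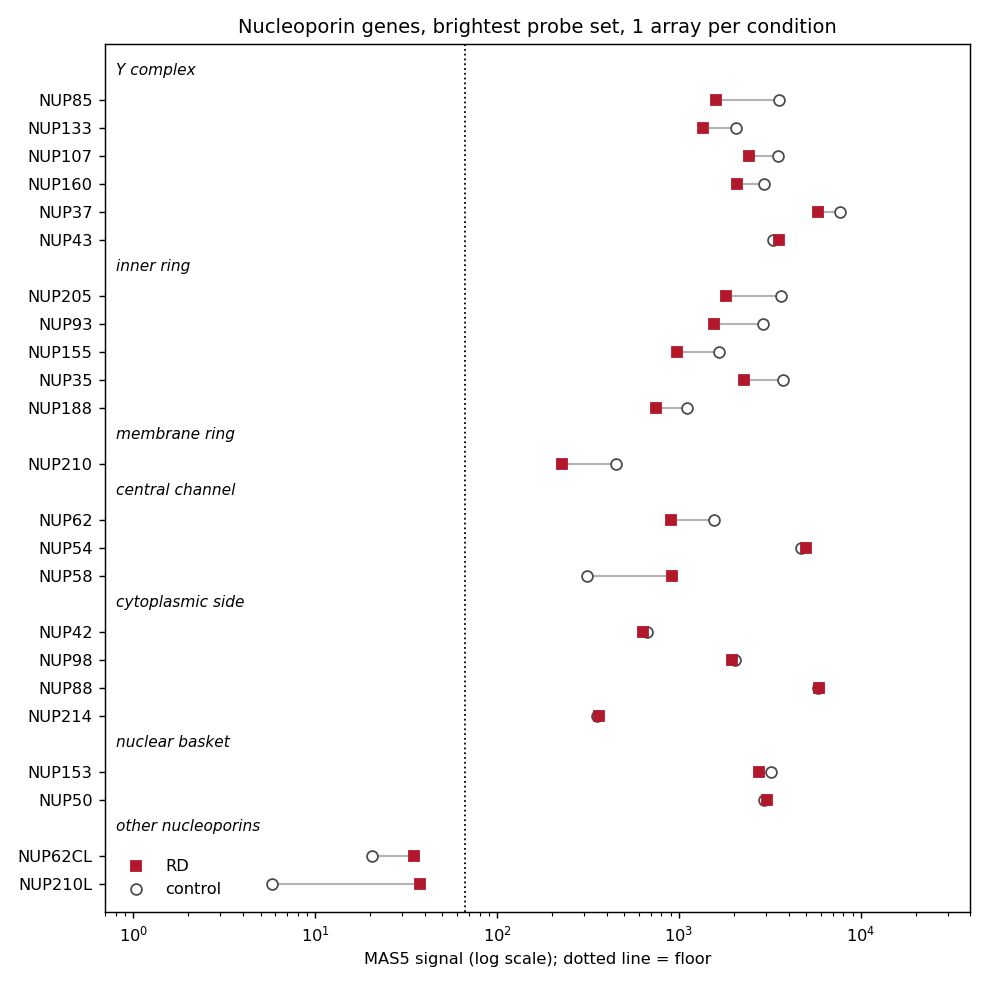
MAS5 signal (horizontal, log scale) of the brightest probe set of each of the 23 nucleoporin genes with RD (filled squares) and in the control (open circles), joined by a line, by place in the pore. Signals of different genes cannot be compared in level. Squares lie to the left of circles for all 5 inner ring genes and for 5 of 6 Y complex genes, and the symbols overlap on the cytoplasmic side.

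The 3 genes of the central channel did not move together, although their proteins form 1 assembly. NUP62 had 902.8 in RD-treated cells and 1553.6 in control cells (1.72-fold lower), and its 2 bright probe sets both differed by -0.78. NUP54 had 5000.1 with RD and 4652.3 in the control. NUP58 was the member with the largest difference upward, with 917.3 in RD-treated cells and 311.6 in control cells (2.94-fold higher). This rested on 1 of its 4 probe sets. The other 3 had 367.1, 347.9 and 305 with RD, against 388, 266.8 and 240.5 in the control, which are differences of -0.08, 0.38 and 0.34. Over all 4 probe sets the median difference of NUP58 was 0.36, so that its count as 2-fold higher was lost.

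By their brightest probe sets, the genes of the cytoplasmic side and the nuclear basket that the naming rule took had nearly equal signals on both arrays. The 4 members of the cytoplasmic side ranged only from -0.07 to 0.04, and the signs of NUP88 and NUP214 turned after centring. NUP88 had 5891.5 in RD-treated cells and 5794.6 in control cells. NUP214, to which the export receptor XPO1 docks, had 362.3 with RD and 353.5 in the control, and NUP42, which acts in the last step of messenger RNA export, had 635.8 with RD and 667.7 in the control. The transcript of NUP98 also encodes NUP96, a stem protein of the Y complex, and had 1954.8 with RD and 2033 in the control, with its other bright probe sets at 0.39 and -0.12. A dimmer probe set of NUP214 had 82 with RD and 158.3 in the control, a difference of -0.95, and another lay at -0.09. In the basket, NUP153 had 2759.2 with RD and 3183.1 in the control (its dimmer probe sets lay at 0.38 and 0.63), and NUP50 had 3031.2 with RD and 2914.4 in the control. The 4 bright probe sets of NUP50 ran from -0.00047 to 0.47. TPR, the main strand of the basket, had 2643.4 with RD and 2224.7 in the control. Outside the rule, RANBP2, the large filament protein that binds Ran, was 1.67-fold higher (5232.1 with RD and 3135 in the control), but its 4 bright probe sets ran from -0.35 to 0.93. GLE1, which activates the helicase that releases messenger RNA, was 1.55-fold lower, and RAE1, which binds NUP98, was 1.37-fold higher. Within the naming rule, the 9 genes of channel, cytoplasmic side and basket had a median of 0.02, against -0.60 for the 11 scaffold genes. NUP98 stood among the 9, although it also encodes NUP96 of the scaffold, and SEH1L, SEC13 and AHCTF1 were in neither set. The ranges overlapped, from -0.78 to 1.56 and from -1.16 to 0.11, and with 1 array per condition this contrast could not be tested. NUP62CL and NUP210L had both signals under the floor and are not described further.

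**Figure D3:**
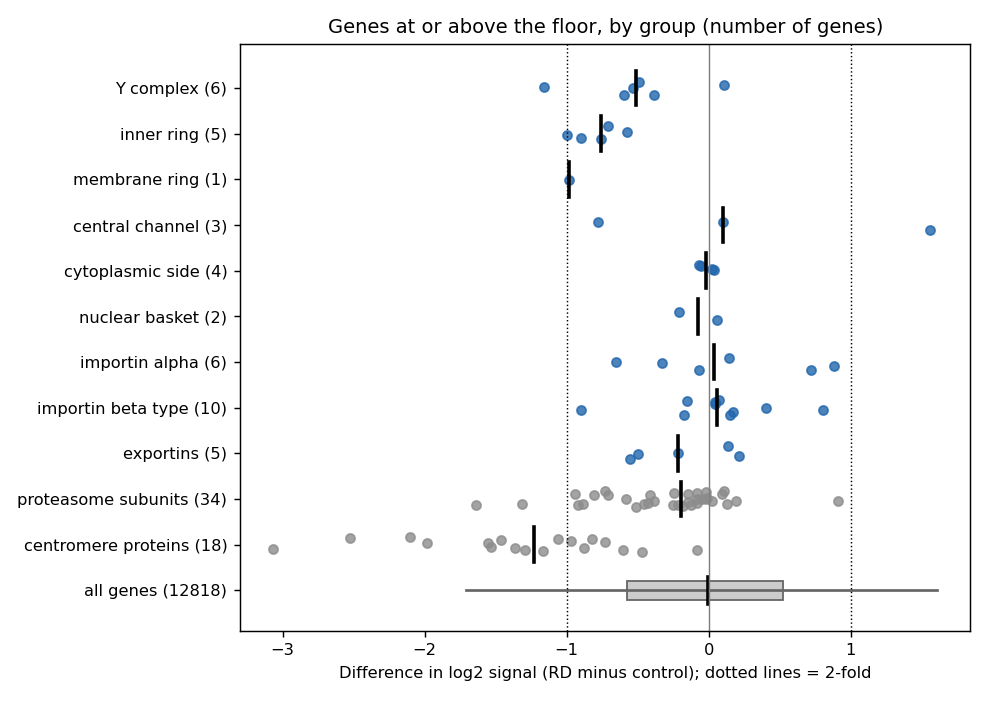
Difference in log2 signal (horizontal, RD minus control) for genes that reached the floor, by place in the pore and by receptor class, with proteasome subunits and centromere proteins (grey) for comparison. Thick bars are medians (-0.51 in the Y complex, -0.76 in the inner ring, 0.06 in importins of the beta type), and for all genes the box spans the quartiles and the line the range from the 5th to the 95th percentile.

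The importin alpha adaptors diverged within their own family. KPNA2, the adaptor of the first subfamily and one whose expression follows proliferation in many tissues, had 10226.9 in RD-treated cells and 16069.8 in control cells (1.57-fold lower). Its second probe set had 8830.6 with RD and 16140.8 in the control, a difference of -0.87. KPNA4 had 6812.1 with RD and 4136.3 in the control (1.65-fold higher), and its 3 bright probe sets had a mean difference of 0.70 ± 0.27 (SD). KPNA3, its close paralogue, had 1576.4 with RD and 1650.4 in the control, with probe sets at -0.07 and -0.37. No bright probe set of KPNA4 (lowest 0.43) overlapped with those of KPNA3. In the third subfamily, KPNA5 had 1554.1 with RD and 841.3 in the control (1.85-fold higher), and its 3 bright probe sets had a mean of 0.64 ± 0.25 (SD). KPNA1 had 1772.3 with RD and 1602.4 in the control, with 5 bright probe sets at a mean of 0.02 ± 0.28 (SD). KPNA6 had 2038.2 with RD and 2554.5 in the control, and all 4 of its bright probe sets were lower, with a mean of -0.27 ± 0.08 (SD). The lowest bright probe set of KPNA5, at 0.38, lay above the highest of KPNA1, at 0.24, and of KPNA6, at -0.17. Each subfamily with over 1 measured gene thus held a member with higher signals and a member with signals near or below those of the control. By the brightest probe sets, the gap was 0.79 between KPNA4 and KPNA3, 0.74 between KPNA5 and KPNA1 and 1.21 between KPNA5 and KPNA6. A difference between 2 bright probe sets of any 1 gene had an SD of 0.48, which covers the scatter between probe sets only, and the first 2 gaps are less than 2 such SDs.

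Among receptors of the importin beta type that reached the floor, TNPO1 had the highest difference, and all its bright probe sets had the same sign. TNPO1 (transportin 1) imports hnRNP proteins and other cargo with a PY signal. Its brightest probe set had 23091.5 in RD-treated cells and 13190.5 in control cells (1.75-fold higher). All 7 bright probe sets were higher, from 0.81 to 1.42, with a median of 0.92 and an SD of 0.21. The brightest probe set was thus the one with the smallest difference, and 2 of the 7 passed 2-fold. The 7 probe sets read the same RNA and are not replicates, and most have a name suffix that marks shared sequence. Without probe sets of shared sequence, the difference of TNPO1 was 0.92. TNPO2, its paralogue, had 1730.1 with RD and 1558.1 in the control, and its 2 bright probe sets lay at 0.15 and 0.25. TNPO3, which imports SR splicing factors, had 4110.8 with RD and 3910 in the control, with probe sets from -0.42 to 0.09.

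IPO9, which carries histones and ribosomal proteins, was the importin with the lowest difference, with 1970.7 in RD-treated cells and 3679.1 in control cells (1.87-fold lower). A dimmer probe set with both signals above the floor had 164.7 with RD and 233.3 in the control, a difference of -0.50. The other 2 reached the floor only in the control, with bounds of at least 2.29-fold and at least 1.31-fold lower. KPNB1 (importin beta 1), the partner of the alpha adaptors, had 21559.6 with RD and 19166.9 in the control. Its 6 bright probe sets were split, 3 between 0.05 and 0.17 and 3 between -0.50 and -0.38, so no direction can be given. IPO7, which imports ribosomal proteins and histone H1, had 18108.9 with RD and 13685.6 in the control (1.32-fold higher), but its 4 bright probe sets ran from -0.45 to 0.40. IPO5 had probe sets from -0.17 to 0.14, and IPO8 had 3418.3 with RD and 3809.8 in the control. IPO4 had 1120.9 with RD and 1085 in the control, and IPO13, which works in both directions, had 411.7 with RD and 400 in the control, a difference that was 0 after quantile normalization. IPO11 had both signals under the floor.

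**Figure D4:**
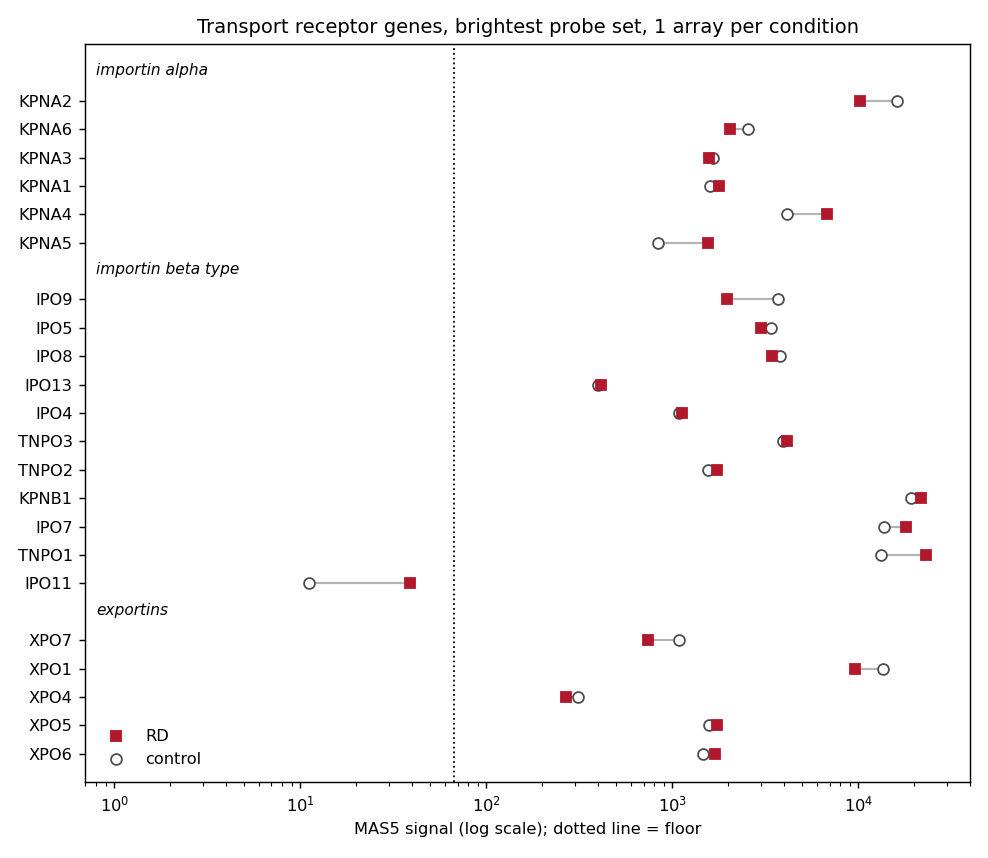
MAS5 signal (horizontal, log scale) of the brightest probe set of each importin and exportin gene with RD (filled squares) and in the control (open circles), joined by a line. Levels cannot be compared between genes. KPNA5, KPNA4 and TNPO1 lie to the right with RD, and KPNA2 and IPO9 lie to the left.

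None of the 5 exportin genes reached 1.5-fold, a limit that 24.7% of all genes passed as lower and 22.8% as higher. With 5 genes, little can be read from this count. XPO1 (CRM1), the receptor for leucine-rich export signals, had 9628.2 in RD-treated cells and 13593.9 in control cells (1.41-fold lower), and its 2 bright probe sets differed by -0.50 and -0.52. XPO7 had 742.1 with RD and 1090.7 in the control (1.47-fold lower), with bright probe sets at -0.56 and -0.54. In both genes the probe sets differed from each other by far less than the SD of 0.34. XPO5, which exports microRNA precursors, had 1727.2 with RD and 1573.7 in the control, and XPO6, which exports actin with profilin, had 1692.8 with RD and 1457 in the control. XPO4 had 267.7 with RD and 311.6 in the control by its brighter probe set and 256.5 with RD and 223.7 in the control by the other, so it has no settled direction.

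**Figure D5:**
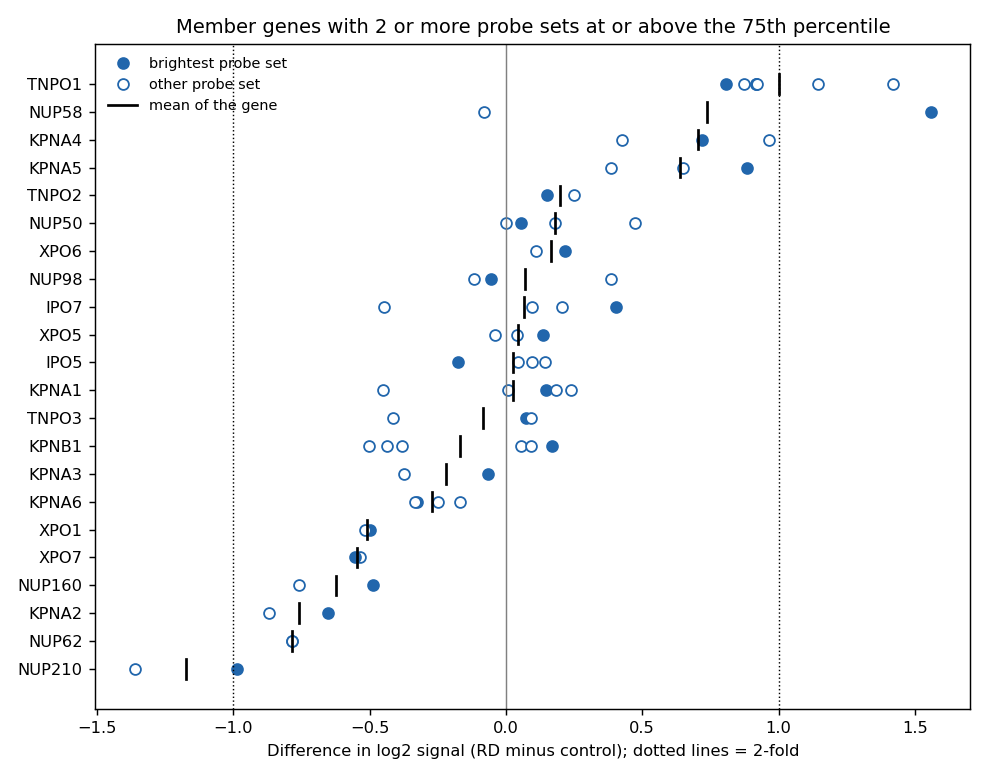
Difference in log2 signal (RD minus control, horizontal) of every bright probe set of the 22 member genes with at least 2 of them. Filled points are the brightest probe sets, bars are the means of each gene, and dotted lines mark 2-fold. All 7 points of TNPO1 lie to the right of 0, those of KPNB1 lie on both sides, and the points of NUP58 are far apart.

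Of these 22 genes, 13 (59.1%) had all their bright probe sets on the same side of 0, against 78.6% of 3382 genes on the arrays. These shares were not matched for probe sets per gene (69 over the 22 genes, 8576 over the 3382) or for size of difference. The SD of differences was 0.57 over 40 bright members and 0.88 over 8094 bright genes. Scatter between bright probe sets of a gene was 0.28 in members and 0.34 in all genes. The lower share thus does not show that member probe sets scattered more. The 9 genes with probe sets on both sides were IPO5, IPO7, KPNA1, KPNB1, NUP50, NUP58, NUP98, TNPO3 and XPO5. All of them except NUP58 had a mean difference under 0.2 in size.

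Of 33 related genes outside the naming rule, 2 were at least 2-fold higher and 6 were at least 2-fold lower, with a median difference of 0.01. These are 6.06% higher and 18.2% lower, against 12.1% higher and 13.3% lower among all genes. All 3 transport factors with other names differed at least 2-fold by their brightest probe sets, which no importin or exportin within the rule did. CSE1L, the exportin that returns importin alpha to the cytoplasm, had 10102.4 in RD-treated cells and 21219.7 in control cells (2.10-fold lower), with 3 bright probe sets at a mean of -1.21 ± 0.13 (SD). XPOT, the exportin of transfer RNA, had 17364.3 with RD and 7112.7 in the control (2.44-fold higher) by its brightest probe set, and its second bright probe set was at 0.30. SNUPN (snurportin 1), the adaptor that imports spliceosomal snRNPs, had 1588.8 with RD and 3586.3 in the control (2.26-fold lower). The exportins by name and those by function thus ranged from -1.07 for CSE1L to 1.29 for XPOT.

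The Ran cycle had 4 of 5 measured genes with lower signals, against 50.1% of all genes, and a median of -0.31. At 1.5-fold, 1 of the 5 (20%) was lower, against 24.7% of all genes. RANBP1, a cofactor in the release of Ran from export complexes, had 6003.8 in RD-treated cells and 14383.4 in control cells (2.40-fold lower). RANGAP1, the GTPase activator at the pore, had 1183.3 with RD and 1642.6 in the control, and its 3 bright probe sets were all lower. RCC1, the exchange factor on chromatin, had 2545.6 with RD and 3150.8 in the control, and RAN itself had 31677.1 with RD and 35086.4 in the control (1.11-fold lower). Among 13 messenger RNA export genes, ALYREF, an adaptor of the TREX complex, had 1761.5 with RD and 4555.4 in the control (2.59-fold lower), and NXT2 had 807.3 with RD and 1812.4 in the control (2.25-fold lower). At the other end, MCM3AP (GANP), the scaffold of the TREX-2 complex, had 1204.3 with RD and 604.9 in the control (1.99-fold higher), although its second bright probe set was at 0.30. All 4 bright probe sets of THOC2, a TREX subunit, were higher, from 0.34 to 0.66. DDX39B, NUTF2, NXF1 and THOC3 were not analysed here.

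For comparison, 34 proteasome subunit genes, which also build a large complex present in every cell, had a median difference of -0.20, with 2 genes at least 2-fold lower and none higher. A lower signal was seen in 82.4% of these subunits, against 71.4% of the nucleoporins, so this share was no larger among nucleoporins. At 1.5-fold the order was the other way, with 23.5% of the subunits lower, against 38.1% of the nucleoporins and 24.7% of all genes. All 18 centromere protein genes, whose products share the kinetochore with the Y complex, had lower signals with RD, 11 of them at least 2-fold, and their median was -1.23. The scaffold nucleoporins, at -0.60, lay between these families. These centromere transcripts were thus lower on the same RD array, and what part this had in the nucleoporin values was not tested.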

How the data were processed

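Total RNA of PC-3 cells, 1 sample with RD and 1 control, had been hybridised to Affymetrix HG-U133 Plus 2.0 arrays. The authors deposited linear intensities, which are MAS5 signals per the labels. The MAS5 version and its scaling target were not given in the sources used here. Means trimmed by 2% at each end were 495.9 (RD) and 495.8 (control), so both arrays had been scaled alike, and no further scaling was applied. MAS5 subtracts mismatch signals, which makes ratios of dim probe sets noisy. The number of arrays limits the precision.

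Of 54613 probe sets, 41091 had 1 gene symbol, 1801 had several and 11721 had none, and the last 2 kinds were left out. Symbols of all members matched RefSeq (GRCh38.p14) by gene number. Genes were counted at a difference of 2-fold or more with the higher signal at the floor of 66.9 or above. Where the lower signal was under the floor, the fold is a lower bound against it. Scatter between probe sets was pooled over genes with at least 2 probe sets. Any member could be named. Of the related genes, those past 2-fold and those at the ends of each list were named, and others were chosen after their values were seen. The members, lists and limits were chosen with earlier results of these data known. The alternatives were quantile normalization, centring, adding 17.1 (the 25th percentile) to every signal, other probe set choices, other floors and a limit of 1.5-fold. The calculations were tested on simulated data. The work used numpy 2.4.6 and pandas 2.3.3 under Python 3.11.15, and figures were drawn with matplotlib 3.10.9.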

Additional observations from a re-analysis of the deposited data

How the results depend on the processing

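The median difference of the nucleoporins stayed negative under every alternative run, from -0.55 (median over bright probe sets, an alternative chosen after seeing the data) to -0.39 (no floor). The median of the importins stayed between 0.02 and 0.07. The median of the 5 exportins was the least steady, at -0.011 with the median over all probe sets of a gene and at -0.50 over the 3 exportins that have a probe set without a shared-sequence suffix. The count of nucleoporins at least 2-fold lower, 1 as reported, was 3 after centring and 3 after quantile normalization. The same settings put 14.3% and 14.0% of all genes at least 2-fold lower. The nucleoporin count was 2 without probe sets of shared sequence, 2 with the median over bright probe sets and 8 at 1.5-fold. NUP205 at 1.99-fold and NUP210 at 1.98-fold lay just under the limit. The count at least 2-fold higher, 1 as reported, was 0 with the median over all probe sets and 0 with that over bright ones, where NUP58 was lost, and 2 with no floor. For importins, where none was counted, the median over all probe sets gave 1 lower, no floor gave 1 higher, and 1.5-fold gave 3 higher and 2 lower. Of 283 values of single members under the alternatives, 8 moved by more than the scatter between probe sets, and none of the 2-fold members changed direction. Other members did. The signs of IPO5, KPNB1, NUP88, NUP153 and NUP214 turned under at least 1 alternative. NUP153 went from -0.21 to 0.38 with the median over all probe sets. KPNB1 went from 0.17 to -0.44 without probe sets of shared sequence. Centring moved the median of all genes to -0.05. No paired analysis was possible because each condition had 1 array.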

Other observations

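The naming rule also took 5 symbols that do not code for proteins, all of them dim. The importin 5 pseudogene IPO5P1 was counted as 2-fold lower by its brightest probe set, with 102.8 in RD-treated cells and 260.4 in control cells, while its next probe set had 126.3 with RD and 126.8 in the control. IPO5 itself had probe sets near 0. NUP210P1, the pseudogene of NUP210, had 66.4 with RD and 135.4 in the control, and since its RD signal lay just under the floor its bound was at least 2.02-fold lower. IPO9-AS1, the antisense transcript of IPO9, had 78.7 with RD and 6.2 in the control, which is at least 1.18-fold higher, while the brightest probe set of IPO9 was lower. NUP50-DT, a divergent transcript of NUP50, had 212.2 with RD and 174.4 in the control, and NUP133-DT was under the floor on both arrays.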
